A study of Homo sapiens with 4 samples.

Results

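The Wnt ligands, the Frizzled receptors and their secreted antagonists of the SFRP and DKK families were measured in U87MG cells, an established human glioblastoma cell line, after silencing of CASP2, the gene of the protease caspase-2. Members were the probe sets whose gene symbol in the platform annotation, where it gave exactly 1, was WNT, FZD, SFRP or DKK followed by a number. This rule used names and no measured value. It found 38 of the 32321 probe sets of the table, for 37 of the 18404 genes named alone on a probe set: 19 of Wnt ligands, 10 of Frizzled receptors, 4 of SFRP genes and 5 of DKK genes, DKK3 having 2. A probe set is a group of short probes along the transcripts of a gene. The experiment had 4 arrays of total RNA, 2 from U87MG cells transfected with a CASP2 siRNA and 2 from U87MG cells transfected with a control siRNA, and the labels describe them as biological replicates. Both groups were the same line in the same medium, and both siRNAs came from Dharmacon. The methods list, for this supplier, a control oligo that is a mutated form of the CASP2 oligo. The labels name 1 silencing siRNA, so an effect of that oligo on other transcripts and an effect of CASP2 silencing cannot be told apart. All levels below are log2 values by Robust Multi-Array Average (RMA), and all changes are differences of log2 values, CASP2 siRNA minus control siRNA.

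Wnt proteins are secreted, lipid-modified ligands that bind the cysteine-rich domain of Frizzled receptors. With the coreceptors LRP5 and LRP6 they stabilize β-catenin, which then acts with TCF and LEF factors in the nucleus, and with other coreceptors, such as ROR1 and ROR2, they act on cell polarity and movement without β-catenin. SFRP proteins carry a Frizzled-like domain and bind Wnts outside the cell, whereas DKK1 binds LRP5 and LRP6 and blocks them as coreceptors. In glioblastoma, Wnt signalling is known for its links to stem-like cells and invasion.

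The sequence before the start site is shown for WNT5A, FZD8 and DKK1, a ligand, a receptor and an antagonist, because their probe sets lay above the upper quartile of levels on the arrays and all 3 are in the promoter table used (RefSeq, GRCh38.p14). The probe sets of WNT7B and FZD6 and 1 of DKK3 lay there too, and these genes are named only. Each run holds the 250 bases before the start site, 5′ to 3′ on the gene's strand. Capitals mark the TATA box motif (TATAAA) and the GC box motif (GGGCGG, read as CCGCCC on the other strand). WNT5A lies at chr3:55481399-55481648 on the minus strand, FZD8 at chr10:35642297-35642546 on the minus strand and DKK1 at chr10:52314031-52314280 on the plus strand.
WNT5A: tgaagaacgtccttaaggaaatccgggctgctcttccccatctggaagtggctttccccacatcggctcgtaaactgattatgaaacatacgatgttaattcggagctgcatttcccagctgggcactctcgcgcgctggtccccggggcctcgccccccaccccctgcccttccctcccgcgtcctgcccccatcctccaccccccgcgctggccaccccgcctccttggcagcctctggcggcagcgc
FZD8: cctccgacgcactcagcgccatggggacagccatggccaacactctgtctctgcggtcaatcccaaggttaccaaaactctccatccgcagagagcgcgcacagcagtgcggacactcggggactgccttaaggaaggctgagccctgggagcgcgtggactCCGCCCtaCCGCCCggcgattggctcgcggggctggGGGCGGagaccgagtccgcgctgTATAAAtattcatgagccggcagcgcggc
DKK1: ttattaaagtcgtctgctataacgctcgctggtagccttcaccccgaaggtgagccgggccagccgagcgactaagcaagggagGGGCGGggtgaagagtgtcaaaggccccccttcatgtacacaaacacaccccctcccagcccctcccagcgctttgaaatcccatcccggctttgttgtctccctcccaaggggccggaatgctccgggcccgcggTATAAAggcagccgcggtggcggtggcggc

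The run of FZD8 held a TATA box motif that began 29 bases before the start site, and that of DKK1 held one that began 30 bases before it. FZD8 had 3 GC box motifs and DKK1 had 1, while the run of WNT5A held neither motif. Promoters of 25 of the 37 genes were in the table. On either strand, the GC box motif was found in 22 of these 25, that is 88%, against 42.6% of all 35116 promoters in the table. The TATA box motif was found in 3 of 25, or 12% (DKK1, FZD8 and WNT5B), against 10.7% of all promoters. The core of the TCF and LEF motif (CTTTGAT) was found in 0 of 25, against 2.26% of all promoters. Median GC content was 74% in the promoters of the members, with a range of 45.2% to 86.8%, against 58% in all promoters, and the GC box motif is itself made of G and C. These matches describe the letters in this window only.

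CASP2 itself was lower on the silenced arrays, with 8.79 and 8.52 after CASP2 siRNA against 10.74 and 10.69 after control siRNA, a log2 change of -2.06 (SE 0.128, 95% interval -2.40 to -1.72) or 4.17-fold lower. It had the smallest unadjusted p of all 32321 probe sets, yet its adjusted p was 0.9999 (limma, Benjamini-Hochberg), and 0 probe sets, or 0%, had an adjusted p under 0.05, while 979 had an unadjusted p under 0.05. The array medians were 6.18 and 6.28 with CASP2 siRNA and both 6.21 with control siRNA. The silenced arrays lay further apart: the SD of the difference between replicates over all probe sets was 0.348 for the CASP2 siRNA pair and 0.205 for the control siRNA pair. Of the marker lists, all 5 measured mesenchymal genes (VIM, CD44, FN1, TIMP1 and CHI3L1) had a control mean of at least 9.62, while of the 6 glial genes SLC1A3, GFAP and OLIG2 had control means of 8.29, 6.53 and 6.05 and SOX2, AQP4 and S100B had control means of 5.50, 3.76 and 3.74. The 4 measured leukocyte genes lay between 3.70 and 5.25 in the control mean. Since no detection call was used, 350 probe sets of olfactory receptor genes, which a glioma line is not expected to express, gave a range of dim values. Their control means had a median of 4.12 and a 95th percentile of 5.51. Above or within the olfactory receptor range means above or below that percentile, although 18 of the 350 lay above it, up to 8.91. Levels of different probe sets depend on their probes, so members are placed against this range and against the quartiles of all probe sets (4.40, 6.20 and 8.67), not against each other.

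Of the 38 member probe sets, 30 had a control mean above the olfactory receptor range: 17 of 19 Wnt ligands, 10 of 10 Frizzled receptors, 1 of 4 SFRP genes and 2 of 5 DKK probe sets. This is beside 19135 of all 32321 probe sets, and 13738 of the 19158 probe sets with 1 symbol, to which all members belong. Above the upper quartile of the arrays were 6: WNT5A, WNT7B, FZD6, FZD8, DKK1 and 1 probe set of DKK3. The 8 members within the olfactory receptor range were WNT2, WNT8B, SFRP1, SFRP2, SFRP4, DKK2, DKK4 and the other probe set of DKK3. Their control means ran from 3.99 to 5.37, and their changes lay between -0.12 and 0.076. A value above the olfactory receptor range does not by itself show a transcript, since no detection call was used. Of the 4 measured neuronal genes, SNAP25, SYT1 and the brightest probe set of RBFOX3 also lay above it (control means 8.45, 6.83 and 6.15). STMN2 lay within it (4.76). Of the 5 measured epithelial genes 2 lay above it (CLDN4 6.69 and KRT19 6.35). Of the 5 endothelial genes 3 did (KDR 8.04, CLDN5 7.18 and the brightest probe set of PECAM1, 5.66). Whether U87MG cells express these genes was not tested.

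The Wnt ligands showed 2 probe sets of high level and a majority in the middle of the arrays, and none passed a test. WNT7B, a ligand known from the vasculature of the developing central nervous system, had 10.38 and 10.22 after CASP2 siRNA and 10.37 and 10.29 after control siRNA. Its groups overlapped, and its change was -0.033 (SE 0.107, 95% interval -0.32 to 0.25). WNT5A, the main ligand of β-catenin-independent signalling through ROR receptors, had 9.61 and 9.55 after CASP2 siRNA and 9.76 and 9.62 after control siRNA. Both silenced arrays lay below both control arrays, by little: the means were 9.58 ± 0.045 with CASP2 siRNA and 9.69 ± 0.098 with control siRNA (SD, n = 2 each), a change of -0.11 (SE 0.102, 95% interval -0.38 to 0.17). Its close relative WNT5B had 6.84 and 7.04 after CASP2 siRNA and 6.89 and 6.91 after control siRNA, and the silenced arrays enclosed the control arrays.

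**Figure D1:**
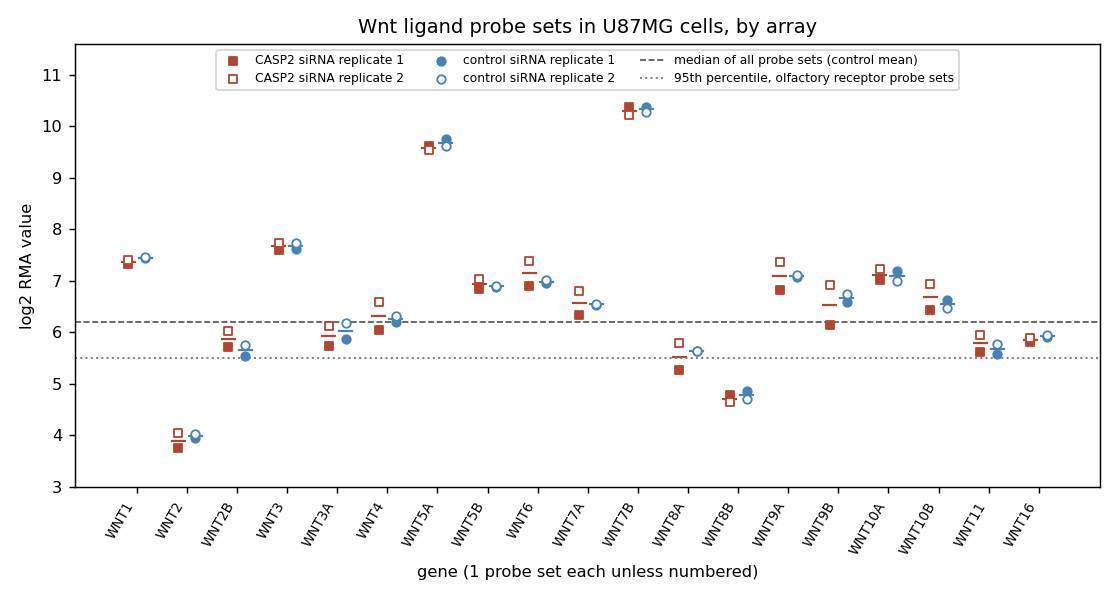
Log2 RMA level of each Wnt ligand probe set on each array, with CASP2 siRNA and control siRNA arrays as separate points. Short bars are group means, the dotted line is the 95th percentile of olfactory receptor probe sets, 5.51, and the dashed line the median of all probe sets, 6.20. WNT2 and WNT8B lie below the dotted line, and WNT5A and WNT7B lie above 8.67, the upper quartile of all probe sets.

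WNT1, first known as a mouse mammary oncogene, had 7.33 and 7.40 after CASP2 siRNA and 7.44 and 7.46 after control siRNA, so the silenced arrays lay lower without overlap (change -0.088, 95% interval -0.33 to 0.16). WNT3 had 7.60 and 7.74 after CASP2 siRNA and 7.62 and 7.73 after control siRNA, and its change of -0.0055 was the smallest in size of any member. WNT3A, the ligand most often used to activate β-catenin in culture, had 5.73 and 6.13 after CASP2 siRNA and 5.87 and 6.18 after control siRNA. Its groups overlapped, as did those of WNT8A, with 5.27 and 5.79 after CASP2 siRNA and 5.64 on both control siRNA arrays. WNT2B, a relative of WNT2, had 5.72 and 6.03 after CASP2 siRNA and 5.54 and 5.76 after control siRNA. This was the largest increase of any member, 0.22 (SE 0.153, 95% interval -0.18 to 0.63), and the lower silenced array lay below the higher control array.

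WNT10A, needed for teeth and hair, had 7.01 and 7.23 after CASP2 siRNA and 7.19 and 6.99 after control siRNA. WNT10B, known to restrain fat cell formation, had 6.43 and 6.95 after CASP2 siRNA and 6.63 and 6.47 after control siRNA. WNT6 had 6.89 and 7.39 after CASP2 siRNA and 6.95 and 7.01 after control siRNA. In all 3 the groups overlapped, with changes of 0.031, 0.14 and 0.16 for WNT10A, WNT10B and WNT6. WNT9A, a ligand of joint formation, had 6.82 and 7.36 after CASP2 siRNA and 7.07 and 7.12 after control siRNA. WNT9B, which in the mouse starts kidney tubule formation, had 6.15 and 6.92 after CASP2 siRNA and 6.60 and 6.74 after control siRNA. Its silenced arrays lay 0.77 apart, the widest such gap of the ligands, and its change was -0.13 (SE 0.277, 95% interval -0.87 to 0.61).

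WNT7A, the relative of WNT7B, had 6.35 and 6.79 after CASP2 siRNA and 6.53 and 6.55 after control siRNA. WNT4, known from kidney and ovary development, had 6.04 and 6.60 after CASP2 siRNA and 6.21 and 6.32 after control siRNA. Both showed the same layout, with the first silenced array below and the second above the control arrays. WNT11, a ligand of cell movements in gastrulation, had 5.63 and 5.96 after CASP2 siRNA and 5.57 and 5.77 after control siRNA, and its groups overlapped. WNT16, known for its part in cortical bone, had 5.81 and 5.90 after CASP2 siRNA and 5.91 and 5.95 after control siRNA, so the silenced arrays were lower without overlap, by 0.072 in the means. Over the 19 Wnt ligands the median change was -0.0058, with 8 above 0 and 11 below.

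Among the Wnt genes, 4 pairs are neighbours in the RefSeq annotation. WNT10B and WNT1 on chromosome 12, WNT3 and WNT9B on chromosome 17 and WNT6 and WNT10A on chromosome 2 have 0 protein-coding genes between them, and WNT9A and WNT3A on chromosome 1 have 1. The changes within a pair were 0.14 for WNT10B and -0.088 for WNT1, -0.0055 for WNT3 and -0.13 for WNT9B, 0.16 for WNT6 and 0.031 for WNT10A, and -0.0058 for WNT9A and -0.098 for WNT3A. Every one of these changes had an interval that held 0.

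All 10 Frizzled receptors lay above the 95th percentile of olfactory receptor probe sets. Of their changes 7 of 10 were above 0, against 50.7% of all probe sets, with a class median of 0.11. FZD6, a receptor of tissue polarity that in the mouse orders hair follicles, had 10.35 and 10.33 after CASP2 siRNA and 10.22 and 10.06 after control siRNA. Both silenced arrays were higher, with means of 10.34 ± 0.0191 for CASP2 siRNA and 10.14 ± 0.11 for control siRNA (SD, n = 2 each). The change of 0.20 (SE 0.103, 95% interval -0.073 to 0.48) had an unadjusted limma p of 0.115, the smallest of any member, and an adjusted p of 0.9999. FZD3, its closest relative and a receptor of axon guidance in the mouse, had 6.86 and 6.40 after CASP2 siRNA and 6.54 and 6.62 after control siRNA, where the first silenced array was the higher.

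FZD1, FZD2 and FZD7 form a subfamily. FZD2 had 8.30 and 8.25 after CASP2 siRNA and 8.16 and 8.13 after control siRNA, higher without overlap by 0.13 (SE 0.0905, 95% interval -0.11 to 0.37). FZD7 had 6.78 and 6.70 after CASP2 siRNA and 6.63 and 6.58 after control siRNA, higher without overlap by 0.14 (SE 0.0936, 95% interval -0.11 to 0.39). FZD1 had 8.38 and 8.26 after CASP2 siRNA and 8.30 and 8.40 after control siRNA, with overlap and a change of -0.031. In 2 of these 3 receptors the silenced arrays were higher without overlap, as in 14.5% of all probe sets, and none passed the test.

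FZD5 and FZD8 are another pair of relatives. FZD8 had 9.91 and 9.98 after CASP2 siRNA and 10.04 on both control siRNA arrays, lower without overlap by 0.098 in the means (95% interval -0.34 to 0.15). FZD5, a receptor of eye and vessel development in the mouse, had 8.09 and 7.86 after CASP2 siRNA and 7.87 and 7.83 after control siRNA. The lower silenced array fell between the control arrays, and the change was 0.13 (95% interval -0.18 to 0.44). FZD4, which also binds norrin in retinal vessels, had 6.00 and 5.92 after CASP2 siRNA and 6.07 and 6.04 after control siRNA, lower without overlap by 0.090 in the means. FZD9 had 7.26 and 7.78 after CASP2 siRNA and 7.35 and 7.41 after control siRNA, and FZD10, its relative, had 6.33 and 6.72 after CASP2 siRNA and 6.39 and 6.46 after control siRNA. In both, the first silenced array was below and the second above the control arrays, with changes of 0.15 for FZD9 and 0.099 for FZD10.

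**Figure D2:**
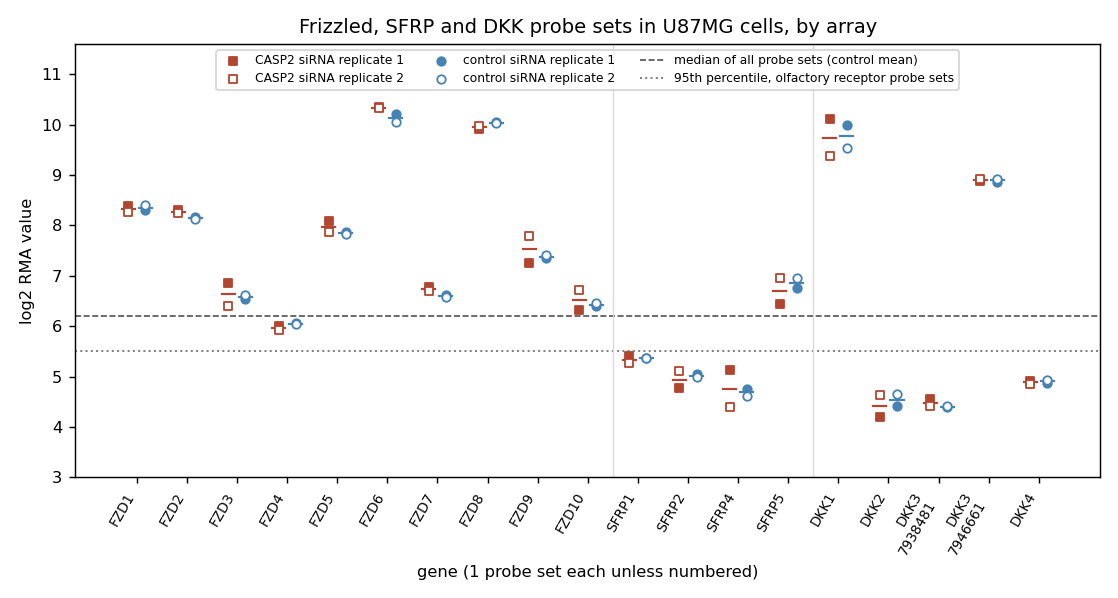
Log2 RMA level of each Frizzled, SFRP and DKK probe set on each array, with CASP2 siRNA and control siRNA arrays as separate points. Short bars are group means, the dotted line is the 95th percentile of olfactory receptor probe sets, 5.51, and the dashed line the median of all probe sets, 6.20. By control mean, 3 of 4 SFRP and 3 of 5 DKK probe sets lie below the dotted line and all 10 Frizzled probe sets above it.

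Among the antagonists, DKK1, SFRP5 and 1 probe set of DKK3 lay above the olfactory receptor range. DKK1, the LRP5 and LRP6 blocker that is itself a target of β-catenin, had 10.12 and 9.37 after CASP2 siRNA and 9.99 and 9.55 after control siRNA. It varied inside both groups, by 1.68-fold between the silenced arrays and 1.36-fold between the control arrays. Each of these gaps lay at the 96.0th percentile of the gaps of all probe sets, and in both groups replicate 1 was the higher. The means were 9.74 ± 0.527 with CASP2 siRNA and 9.77 ± 0.316 with control siRNA (SD, n = 2 each), and the change of -0.027 had the widest interval of any member, -0.84 to 0.78.

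DKK3, a divergent member of its family that is often silenced in tumours, had 2 probe sets on different sides of the olfactory receptor range. The brighter (7946661) had 8.89 and 8.92 after CASP2 siRNA and 8.87 and 8.92 after control siRNA, a change of 0.010 (95% interval -0.23 to 0.25). The dimmer (7938481) had 4.55 and 4.41 after CASP2 siRNA and 4.39 and 4.42 after control siRNA. Neither probe set had groups that lay apart. SFRP5, a relative of SFRP1 and SFRP2, had 6.45 and 6.95 after CASP2 siRNA and 6.75 and 6.96 after control siRNA. Its change of -0.16 (SE 0.203, 95% interval -0.70 to 0.38) was the lowest of any member, with overlapping groups. SFRP1, SFRP2 and SFRP4 all lay within the olfactory receptor range, where SFRP4 had 5.13 and 4.39 after CASP2 siRNA and 4.75 and 4.63 after control siRNA. The class medians of change were -0.057 over the SFRP genes and -0.022 over the DKK probe sets.

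No member passed any of the tests. Past the thresholds of the methods, which ask for more than 1.5-fold with an unadjusted p below 0.05, there were 0 of 38 members higher and 0 lower, against 107 higher (0.331%) and 117 lower (0.362%) of all probe sets. Of the 19158 probe sets with 1 symbol, as all members are, only 19 were higher and 26 lower by these thresholds. An unadjusted limma p under 0.05 was reached by 0 of 38, against 3.03% of all probe sets (1.54% higher and 1.49% lower) and 421 of the 19158 with 1 symbol. Every member had an adjusted p of 0.9999. Without the first CASP2 siRNA array 9 members reached an unadjusted p under 0.05, beside 6257 of all probe sets, and without the second 6 members did, beside 3511, with none past an adjusted p of 0.05. With 2 arrays per group an exact permutation test of a single value cannot go below p = 0.333. Groups lay apart, in the sense that both silenced arrays were above or both below both control arrays, in 3 members that were higher (FZD2, FZD6 and FZD7), against 14.5% of all probe sets, and in 5 that were lower (WNT1, WNT5A, WNT16, FZD4 and FZD8), against 15.1%. Together these were 8 of 38, against 29.6% of all probe sets. Changes above 0 were found in 18 of 38 members, against 50.7% of all probe sets. The median change of the members was -0.0057 and that of all probe sets 0.0022, and the changes of the members ran from -0.16 (SFRP5) to 0.22 (WNT2B).

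The intervals bound what these arrays can show. All 38 intervals held 0, and all 38 lay within a 2-fold change in either direction. A change of 1.5-fold was outside the interval in both directions for 26 of 38 members: 12 of 19 Wnt ligands, 9 of 10 Frizzled receptors, 2 of 4 SFRP genes and 3 of 5 DKK probe sets. For the other members, among them DKK1, WNT9B and SFRP5, a 1.5-fold change in at least 1 direction lay inside the interval. All of these intervals bound probe set values, and without a detection call they do not by themselves bound the transcripts. For low levels RMA compresses folds, which bears most on the 8 members within the olfactory receptor range. How far it reaches members just above that range was not tested.

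**Figure D3:**
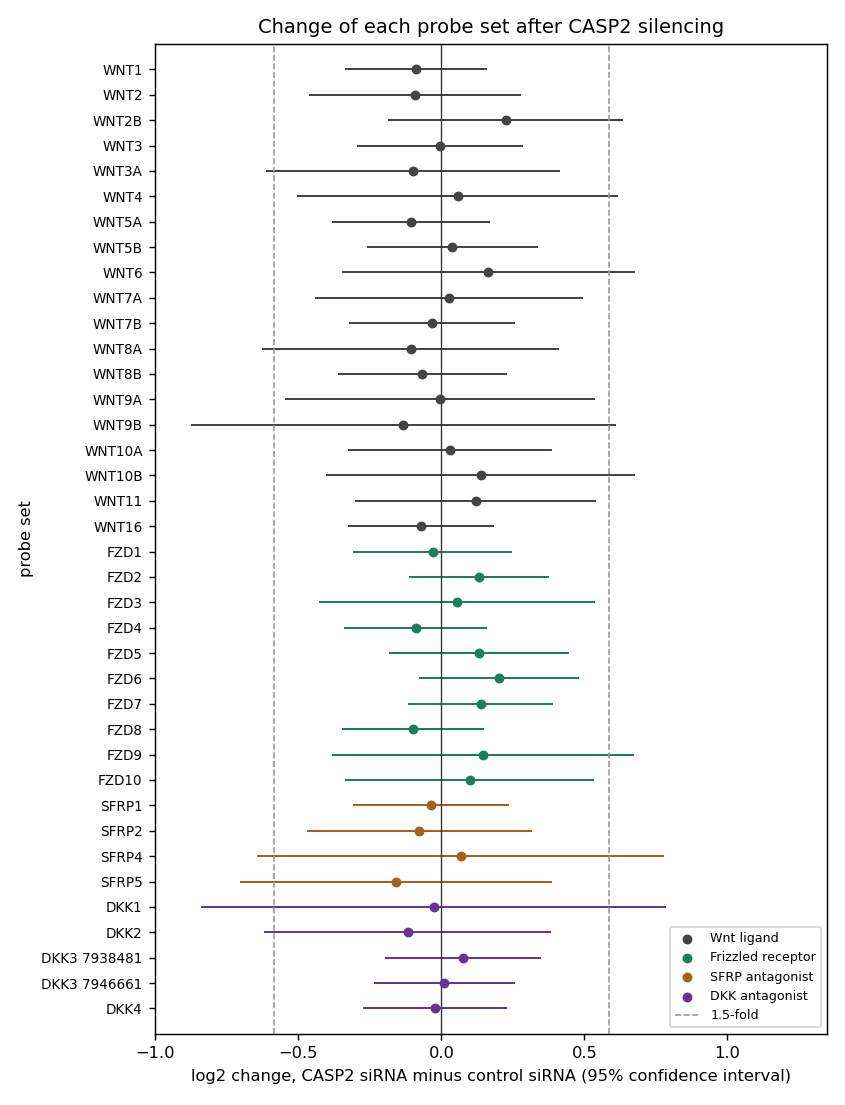
Log2 change of each member probe set, CASP2 siRNA minus control siRNA, with its 95% limma interval as a line and dashed lines at 1.5-fold. Every interval crosses 0, and that of DKK1, -0.84 to 0.78, is the widest.

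The silenced arrays took different positions around the controls for the Wnt ligands. Measured from the control mean, the 19 ligands had a median of -0.11 on the first CASP2 siRNA array and 0.14 on the second, so the median change near 0 was an average of opposite positions. The second silenced array was above the first in 16 of 19 ligands, or 84.2%, against 46.6% of all probe sets. This order also held in 68.9% of olfactory receptor probe sets, and it varied with level over the whole array. By control mean it held in 44.7% of all probe sets below the lower quartile and 68.7% between that and the median. It held in 44.8% between the median and the upper quartile and in 28.1% above the upper quartile. Whether the ligands differed from other probe sets of their level was not tested. The second control array was likewise above the first in 14 of 19 ligands, or 73.7%, against 51.6% of all probe sets. The gap was smaller: the median of the second minus the first array was 0.30 for CASP2 siRNA and 0.043 for control siRNA. The first lay below and the second above both control arrays in 10 of 19 ligands, or 52.6%, and in 13 of 38 members, or 34.2%, against 16.4% of all probe sets. This layout varied with level over the whole array: it was found in 10.3% of all probe sets with a control mean below the lower quartile, in 29.3% of those between the lower quartile and the median, in 21.3% of those between the median and the upper quartile, in 4.86% of those above the upper quartile, and in 24.0% of olfactory receptor probe sets. Among members, in the same order of level, it was found in 1 of 1, 2 of 13, 10 of 18 and 0 of 6.

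The Frizzled receptors had medians of 0.092 on the first and 0.059 on the second CASP2 siRNA array, and 2 of 10 (FZD9 and FZD10) had the first below and the second above both control arrays. The difference between the classes was not tested. Those of the DKK probe sets were 0.010 and 0.0026, and those of the SFRP genes -0.11 and -0.0066. The gap between the silenced arrays was larger than that between the control arrays in 34 of 38 members, or 89.5%, against 70.1% of all probe sets. The median SD within a group was 0.186 with CASP2 siRNA and 0.0511 with control siRNA over the members, against 0.129 with CASP2 siRNA and 0.0618 with control siRNA over all probe sets. Leaving out a silenced array leaves the position of the other as the change. The median change of the Wnt ligands was thus 0.14 without the first CASP2 siRNA array and -0.11 without the second, so its sign was not settled.

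**Figure D4:**
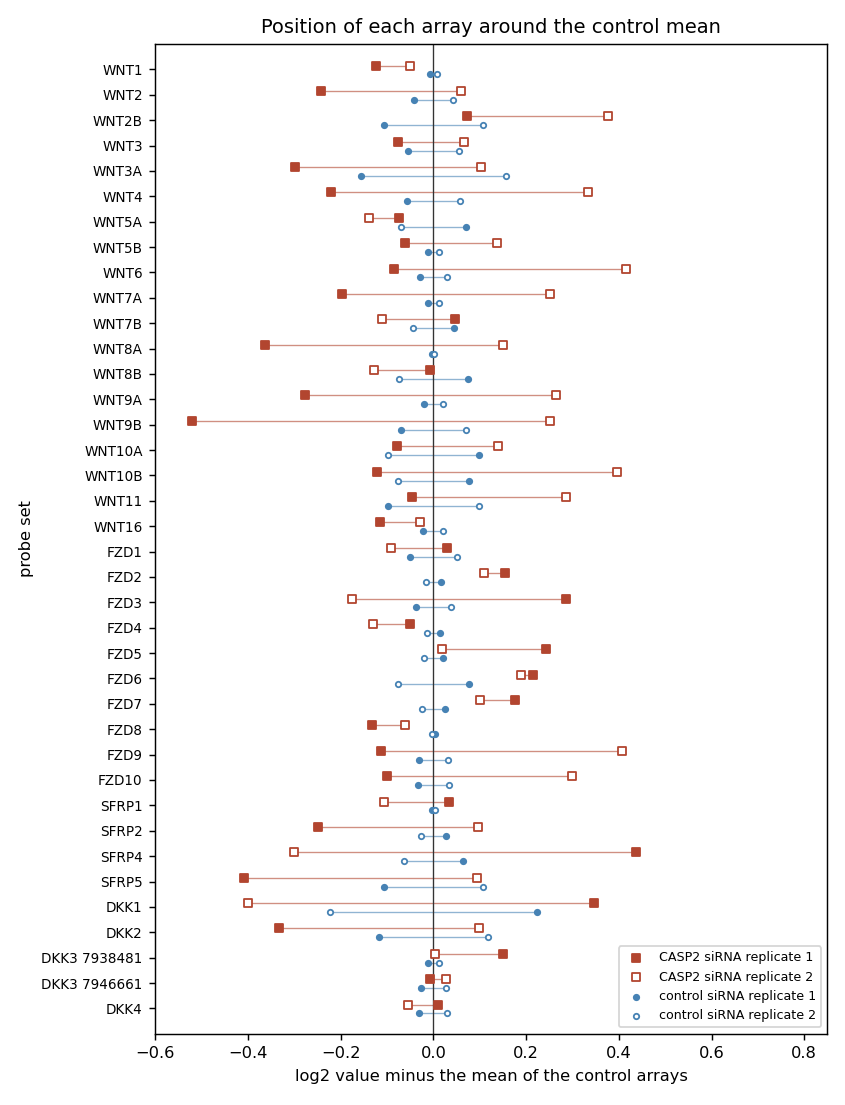
Position of the 2 CASP2 siRNA arrays and the 2 control siRNA arrays around the control mean, in log2 units, for each of the 38 member probe sets, with a line joining the arrays of a group. For most Wnt ligands the first silenced array lies to the left and the second to the right of the controls, with medians of -0.11 and 0.14 over all 19.

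The other genes of the pathway were followed in 8 lists, of which 69 genes were measured. None passed the thresholds of the methods in either direction, 37 of 69 changes were above 0 and the median was 0.011. An unadjusted limma p under 0.05 was reached by 1 of the 69, against 3.03% of all probe sets and 421 of the 19158 with 1 symbol. The groups lay apart in 13 of the 69 genes with the silenced arrays higher, against 14.5% of all probe sets, and in 13 with them lower, against 15.1%.

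This 1 gene was CCND1, which encodes cyclin D1 and is a target of β-catenin in many tissues. It had 12.03 and 11.98 after CASP2 siRNA and 12.27 and 12.24 after control siRNA, a change of -0.25 (95% interval -0.49 to -0.007; limma adjusted p = 0.9999). The 12 measured target genes had 4 changes above 0 and 8 below, with a median of -0.045, and groups lay apart in 5 of 12, with the silenced arrays lower in each, against 15.1% of all probe sets lower and 29.6% apart in either direction. AXIN2, the most general target of the pathway, had 6.74 and 6.71 after CASP2 siRNA and 6.78 and 6.73 after control siRNA, with overlapping groups. LEF1, both a nuclear partner of β-catenin and a target, had 8.96 and 8.71 after CASP2 siRNA and 9.17 and 9.10 after control siRNA. Its change was -0.30 (95% interval -0.63 to 0.031), and over the 12 measured nuclear effectors the median was -0.015, with 5 above 0 and 7 below.

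At the cell surface, ROR1, a receptor kinase that binds WNT5A, had 7.71 and 7.64 after CASP2 siRNA and 7.51 and 7.34 after control siRNA, higher without overlap by 0.25 (95% interval -0.041 to 0.54). Of the 6 coreceptors 3 were above 0, with a median of 0.016. SOSTDC1, a secreted antagonist of BMP and Wnt signalling, had 3.84 and 3.98 after CASP2 siRNA and 3.70 and 3.50 after control siRNA, all within the olfactory receptor range, and 6 of the 10 other antagonists were above 0. RSPO2, an R-spondin that keeps Frizzled receptors on the cell surface, had 4.72 and 4.90 after CASP2 siRNA and 4.61 and 4.64 after control siRNA, also within that range. Its list of 9 genes had 6 above 0 and a median of 0.071. TRABD2A, a protease that inactivates Wnts, had the smallest p of the 4 measured secretion genes, with a change of -0.084 (95% interval -0.35 to 0.18).

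Inside the cell, DAAM1, a formin that links Dishevelled to actin, had 8.32 and 8.17 after CASP2 siRNA and 7.97 and 8.00 after control siRNA, higher without overlap by 0.26 (95% interval -0.015 to 0.53). Over the 8 planar cell polarity genes the median was 0.043, with 5 above 0. DVL3, a Dishevelled protein that relays the signal from Frizzled receptors, had 9.89 and 10.00 after CASP2 siRNA and 9.76 and 9.78 after control siRNA, higher without overlap by 0.17 (95% interval -0.080 to 0.43). In its list of 15 measured genes 8 were above 0 and 7 below, with a median of 0.0040, and CTNNB1, which encodes β-catenin, had 12.07 and 12.06 after CASP2 siRNA and 12.08 and 12.04 after control siRNA.

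**Figure D5:**
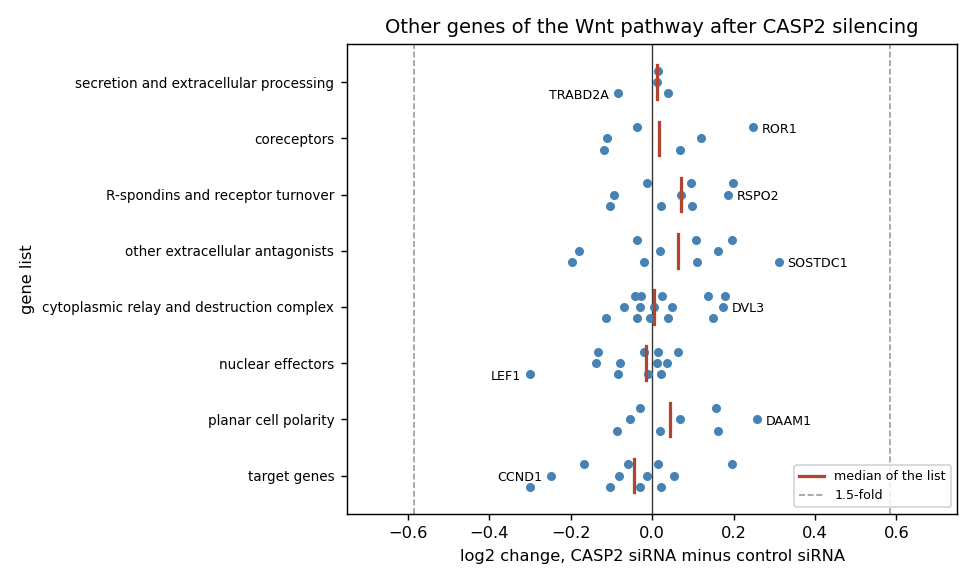
Log2 change, CASP2 siRNA minus control siRNA, of the measured genes of the 8 pathway lists, 1 point per gene and list, with the median of each list as a bar and the gene of smallest unadjusted p named. All points lie inside the 1.5-fold lines, and the list medians run from -0.045 for target genes to 0.071 for R-spondins and receptor turnover.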

How the data were processed

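The authors hybridized RNA of U87MG cells to Affymetrix Human Gene ST arrays and processed them by RMA (version not given in the sources used here). They deposited a table of log2 values with 1 column per array. RMA makes the probe values of all arrays follow 1 distribution and compresses folds near background. The number of arrays, 2 per group, limits the precision.

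Symbols came from the platform annotation: 19158 probe sets had 1 symbol, 1388 several and 11775 none, and for 19128 of them the symbol was brought up to date from RefSeq (GRCh38.p14) by matching gene IDs. All 32321 probe sets were fitted with limma 3.58.1 (lmFit, eBayes) in R 4.3.3, as a two-sided test. P-values were adjusted over the whole table by Benjamini-Hochberg, and rows are given for the members, CASP2 and the pathway genes named. The fit was tested on simulated data with the same spread in both groups, whereas the silenced arrays here spread more than the control arrays. Members and lists were chosen with earlier results of these data known. Values per array are given for members above the 95th percentile of olfactory receptor probe sets, and from each pathway list for the gene with the smallest unadjusted p. AXIN2, CTNNB1 and SFRP4 and the dim DKK3 probe set were added: the first 3 after their values were seen, the last as a further probe set of a named gene. In pathway lists the brightest probe set stood for a gene. Of the listed pathway genes, PORCN, CSNK1E and TCF7 had no probe set with exactly 1 symbol and were not used.

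Alternatives were the methods' thresholds with their own test, a further quantile normalization, eBayes with a trend and robust fit, linear means, omission of dim probe sets, the replicate number as a block, and each array left out in turn. The labels do not say whether arrays of the same replicate number were paired. Deviations of same-numbered arrays from their group means correlated at 0.020 over all probe sets, which does not settle it. Over the members, the SD of the difference between a silenced and a control array was 0.184 and 0.178 for same-numbered arrays. It was 0.237 and 0.254 for the others. Over all probe sets this SD was 0.238 and 0.290 for same-numbered arrays and 0.280 and 0.255 for the others, so pairing stays unknown.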

Additional observations from a re-analysis of the deposited data

How the results depend on the processing

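No member passed the thresholds of the methods or an adjusted p under 0.05 in any alternative run, and the smallest adjusted p among the 30 members above the olfactory receptor range was 0.202 (limma). Of 294 changes of these 30 members under alternatives, 259 kept their direction and 35 did not, 29 of them on leaving out an array. The trend and robust fit, the methods' own test, the replicate block and the omission of dim probe sets leave each change itself as it is. No direction could turn in those runs, and they are counted among the 259. An unadjusted limma p under 0.05 was reached by 1 member with the trend and robust fit, 9 without CASP2 siRNA replicate 1, 6 without CASP2 siRNA replicate 2 and 0 in the others. Among the 69 other pathway genes it was reached by 2 with the trend and robust fit, 3 with quantile normalization, 2 without dim probe sets and 0 to 16 on leaving out an array. The 16 were reached without CASP2 siRNA replicate 1, where 6257 of all 32321 probe sets reached it, and CCND1 and all others missed it with the methods' own test and with the replicate block. Of all 32321 probe sets, 1239 reached it with the trend and robust fit and 1188 with quantile normalization. Without dim probe sets 638 did, with fewer probe sets tested. The member that reached it with the trend and robust fit was FZD6. Of the 30 members above the olfactory receptor range, 10 kept their direction in every run that held them. These were WNT1, WNT2B, WNT5A, WNT16, FZD2, FZD4, FZD5, FZD6, FZD7 and FZD8. WNT2B, WNT16 and FZD4 were not in the run without dim probe sets. All of the 10 except WNT2B and FZD5 had groups that lay apart, and leaving out an array cannot turn the sign of such a change.

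On quantile normalization of the deposited values the sign turned for WNT3 (0.014), WNT9A (0.017), FZD1 (0.0018) and DKK1 (0.0033), and with linear means for WNT9A (0.019) and DKK1 (0.0034). When each array was left out in turn, the changes ran from -0.077 to 0.066 for WNT3, -0.30 to 0.10 for WNT3A, -0.22 to 0.33 for WNT4, -0.061 to 0.14 for WNT5B and -0.086 to 0.42 for WNT6. They ran from -0.20 to 0.25 for WNT7A, -0.11 to 0.046 for WNT7B, -0.36 to 0.15 for WNT8A, -0.28 to 0.26 for WNT9A and -0.52 to 0.25 for WNT9B. For WNT10A, WNT10B and WNT11 they ran from -0.078 to 0.14, -0.12 to 0.40 and -0.045 to 0.29. Among receptors the ranges were -0.091 to 0.030 for FZD1, -0.18 to 0.29 for FZD3, -0.11 to 0.41 for FZD9 and -0.10 to 0.30 for FZD10, and among antagonists -0.41 to 0.094 for SFRP5, -0.40 to 0.35 for DKK1 and -0.017 to 0.038 for the brighter DKK3 probe set.

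The median over the Wnt ligands ran from -0.11 without CASP2 siRNA replicate 2 to 0.14 without CASP2 siRNA replicate 1. With both silenced arrays it was above 0 with quantile normalization (0.014), without dim probe sets (0.011) and without control siRNA replicate 2 (0.015). It was below 0 with linear means (-0.0047) and without control siRNA replicate 1 (-0.00014). The Frizzled median ran from 0.059 to 0.11 on leaving out an array, and the Frizzled mean was 0.068. The DKK median ran from -0.017 to 0.010, and the SFRP median from -0.11 to -0.0066, with -0.16 once dim probe sets were left out, which leaves SFRP5 alone. The median of the other pathway genes ran from -0.030 to 0.021, and the change of CASP2 from -2.20 to -1.93.

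Over all probe sets, the methods' own test gave 35 higher and 37 lower calls and omission of dim probe sets 22 and 33, with fewer probe sets tested. Leaving out an array gave 118 to 414 higher and 157 to 592 lower calls, with 398 and 592 without CASP2 siRNA replicate 1, 414 and 224 without CASP2 siRNA replicate 2, and 183 and 196 without control siRNA replicate 1. A lone array was then assumed to vary like the other group, and the cause of the larger counts was not tested. With the replicate number as a block there were 142 higher and 160 lower calls, and 0 members were called. Whether same-numbered arrays were paired is not known from the labels, and their deviations correlated at 0.020 over all probe sets. With the median of all probe sets as the bar in place of the olfactory receptor range, 24 members lay above it.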
